A study of Mus musculus with 8 samples.

Results

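Myelin is the membrane that oligodendrocytes wrap around axons, and 9 genes of this lineage were followed in the hippocampus of mice with and without Mbd2. They are Mbp, Mog, Mag, Mobp, Cnp, Mal, Cldn11, Ugt8a and Olig1, chosen by gene symbol among the 19201 genes of the deposited table. All 9 passed the filter on low values, which kept 14504 genes whose normalized count averaged 10 or more. Mbd2 encodes a protein that binds methylated CpG sites, and the study asked what its loss does to gene expression in the hippocampus. Each genotype had 4 libraries, and each library pooled the bilateral hippocampi of 2 mice aged 10 to 12 weeks. The wild-type mice were C57BL/6, labelled control, and the Mbd2-/- mice were littermates bred from heterozygous parents, in which the deletion is present in every cell from conception and exon 1 of Mbd2 is still transcribed. Males and females were balanced between the groups, and no agent was given to either. Total RNA was depleted of ribosomal RNA and read as 100-base paired ends.

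The libraries held 8087750 to 23790825 reads on genes. Values are normalized counts, the reads on a gene divided by a size factor of the library. Mbd2 itself had normalized counts of 295, 363, 371 and 354 in wild-type replicates 1 to 4 and 244, 239.6, 339 and 217 in Mbd2-/- replicates 1 to 4. Its groups overlapped, with a log2 fold change of -0.43 (SE 0.12, adjusted p = 0.0174 by limma, a linear model fitted over all tested genes), and reads from the intact exon 1 mean that this gene-level value does not check the deletion. In Mbd2-/- replicates 1 to 3 longer transcripts had lower values relative to the mean of the wild-type libraries (Spearman's rho across genes -0.48, -0.43 and -0.48), while Mbd2-/- replicate 4 had a rho of -0.10 and the wild-type libraries lay between -0.07 and 0.06. Over all tested genes, 12.0% were called higher and 10.0% lower in Mbd2-/- at a Benjamini-Hochberg adjusted p under 0.05, and 12.1% had all Mbd2-/- libraries above all wild-type libraries.

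Oligodendrocyte precursors leave the cell cycle, switch on a program of myelin genes and spread membrane that is then compacted around the axon. Compact myelin is held together by proteins such as Mbp and Mobp, the membrane facing the axon and the outer surface carry adhesion proteins such as Mag and Mog, and the membrane is rich in galactolipids, for which Ugt8a makes the first step. In the adult hippocampus myelin is sparse within the cell layers and dense in the fibre tracts that border them, the alveus and the fimbria. The RNA is from whole tissue, so that a difference in the number of oligodendrocytes and a difference in RNA per oligodendrocyte cannot be told apart.

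Promoters of 4 of the 9 genes are shown because Mbd2 reads CpG sites, and these 4 genes span the range from few to many CpGs. The sequences are from RefSeq on GRCm38.p6, run from 250 bases before to 50 bases after the annotated start, are written 5′ to 3′ on the strand of the gene, and have each CG in capitals. They are Mog at chr17:37023349-37023648 on the minus strand, Mobp at chr9:120149492-120149791 on the plus strand, Mal at chr2:127656646-127656945 on the minus strand and Ugt8a at chr3:125938603-125938902 on the minus strand.
Mog: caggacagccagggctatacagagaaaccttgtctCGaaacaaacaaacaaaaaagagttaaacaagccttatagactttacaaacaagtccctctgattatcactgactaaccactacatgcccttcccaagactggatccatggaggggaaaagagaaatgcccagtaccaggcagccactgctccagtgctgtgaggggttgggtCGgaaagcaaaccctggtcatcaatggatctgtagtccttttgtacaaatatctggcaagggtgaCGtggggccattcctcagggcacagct
Mobp: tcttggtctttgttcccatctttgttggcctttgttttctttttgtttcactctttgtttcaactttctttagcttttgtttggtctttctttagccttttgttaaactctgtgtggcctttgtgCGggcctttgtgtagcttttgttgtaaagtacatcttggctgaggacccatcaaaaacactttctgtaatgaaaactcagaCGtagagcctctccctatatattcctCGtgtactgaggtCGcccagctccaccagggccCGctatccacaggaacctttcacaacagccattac
Mal: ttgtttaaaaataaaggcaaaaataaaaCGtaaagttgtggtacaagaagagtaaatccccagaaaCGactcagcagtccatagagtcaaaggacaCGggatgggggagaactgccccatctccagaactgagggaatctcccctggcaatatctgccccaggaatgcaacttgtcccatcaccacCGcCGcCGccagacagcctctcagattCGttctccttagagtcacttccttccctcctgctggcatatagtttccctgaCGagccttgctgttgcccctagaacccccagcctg
Ugt8a: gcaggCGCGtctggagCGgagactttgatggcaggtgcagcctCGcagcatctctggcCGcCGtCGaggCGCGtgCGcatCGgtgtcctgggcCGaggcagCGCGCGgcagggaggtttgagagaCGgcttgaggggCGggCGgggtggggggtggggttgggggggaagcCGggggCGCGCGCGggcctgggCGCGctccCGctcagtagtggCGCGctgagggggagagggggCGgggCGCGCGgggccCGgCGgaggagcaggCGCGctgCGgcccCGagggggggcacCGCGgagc

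The Mog promoter held 3 CGs, the Mobp promoter 5, the Mal promoter 8 and the Ugt8a promoter 40. Among 32851 promoters of the same length the median was 7, and 31.4%, 43.6%, 54.2% and 96.5% held at most the number found in Mog, Mobp, Mal and Ugt8a. Cnp had 17 and Cldn11 had 24, and the 3 promoters listed for Mag, which overlap in part, had 3, 6 and 3. In all, 7 of the 9 genes matched, with 9 promoters, and Mbp and Olig1 did not. The E-box letters CANNTG, which read the same on both strands, were in 5 of the 9 promoters (the 3 of Mag, Cnp and Ugt8a) and in 72.3% of all promoters. The letters ACAAAG, part of the site of Sox factors, were found on either strand in 4 of the 9 (Cnp, Mobp and overlapping promoters of Mag) and in 18.7% of all. The overlapping promoters of Mag share the same match to each pattern, so these counts are not of separate sequences. The Mobp promoter held 6 matches to ACAAAG, as ctttgt on the printed strand, and was the only promoter of the 32851 with at least 6. The 4 genes whose promoters are shown were all called higher in Mbd2-/-, and the CG counts of the promoters of genes not called (Mag and Cnp) lay within the same range.

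Of the 9 genes, 6 were higher in Mbd2-/- hippocampi, none was lower and 3 did not pass the test, beside 12.0% of all tested genes called higher and 10.0% called lower. Mbp, Mog and Mobp, which encode structural and surface proteins of myelin, rose by 33.1%, 26.6% and 26.0% in the ratio of the means, Mal and Ugt8a by 16.1% and 16.2%, and Cldn11 by 11.9%. The values of Cnp, Mag and Olig1 were 12.1%, 13.8% and 5.22% higher without passing. The same 6 genes had all Mbd2-/- libraries above all wild-type libraries, as did 12.1% of all tested genes. The median log2 fold change of the 9 was 0.21, that of all tested genes was -9.1e-05, and the median size of the change among all called genes was 0.30. In the plot of the genes in each library, Mbd2-/- replicate 4 stands lowest among the Mbd2-/- libraries for 7 of the 9 genes.

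**Figure D1:**
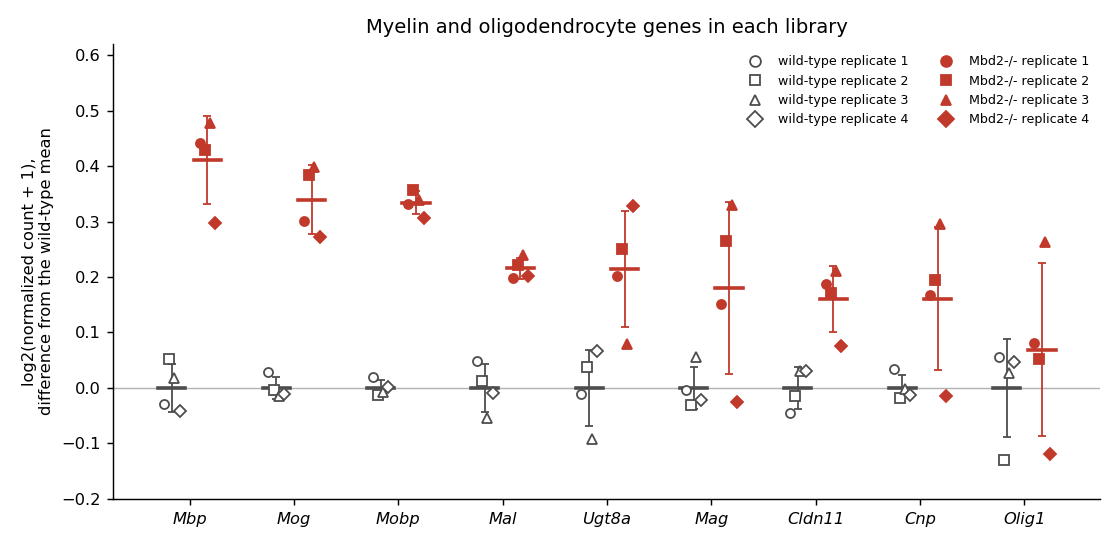
Values of the 9 genes in each library as log2(normalized count + 1) minus the wild-type mean of the gene (vertical axis), open grey symbols for the 4 wild-type libraries and filled red symbols for the 4 Mbd2-/- libraries, with the mean (horizontal line) and SD (bar). Mbp, Mog, Mobp, Mal, Ugt8a and Cldn11 show no overlap between the genotypes, whereas Mbd2-/- replicate 4 falls below the wild-type mean for Mag, Cnp and Olig1.

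Mbp encodes myelin basic protein, which joins the inner faces of the membrane in compact myelin, and its gene lies on chromosome 18 of mm9 at 82644538 to 82755029 on the plus strand, 11859 kb from Mbd2 on the same chromosome. Its normalized counts were 34965, 36979, 36112 and 34639 in wild-type replicates 1 to 4 and 48459.7, 48033, 49663 and 43806 in Mbd2-/- replicates 1 to 4. Every Mbd2-/- library was above every wild-type library, and Mbd2-/- replicate 4 was the lowest of its genotype. The means were 35674 ± 1075 and 47490.3 ± 2552 (SD, n = 4 each). Mbp was the gene with the largest change of the 9, at a log2 fold change of 0.41 (SE 0.04, 95% interval 0.32 to 0.51, adjusted p = 2.82e-05 by limma), and the exact two-sided permutation test gave p = 0.0286, the smallest that 4 libraries against 4 allow. It was the 11th most abundant of the tested genes in the wild-type libraries by normalized count.

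Mobp, the myelin-associated oligodendrocytic basic protein of compact myelin, lies on chromosome 9 of mm9 at 120058860 to 120090602 on the plus strand. It had normalized counts of 4994, 4881, 4903 and 4932 in the wild-type libraries and 6199.5, 6310.1, 6235 and 6096 in the Mbd2-/- libraries. The groups were far apart relative to their spread, with means of 4928 ± 48.9 and 6210.3 ± 88.8. The log2 fold change was 0.33 (SE 0.04, 95% interval 0.24 to 0.42, adjusted p = 1.09e-04 by limma), and the exact permutation p was 0.0286.

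Mog encodes myelin oligodendrocyte glycoprotein, found on the outermost surface of the sheath, and lies on chromosome 17 at 37147691 to 37160343 on the minus strand. The wild-type libraries held normalized counts of 953, 932, 925 and 927, and the Mbd2-/- libraries 1152, 1219.9, 1232 and 1128. The wild-type values lay within a narrow range and all Mbd2-/- values were above it, with means of 934 ± 12.9 and 1183 ± 50.8. Mog had a log2 fold change of 0.34 (SE 0.05, 95% interval 0.23 to 0.45, adjusted p = 5.26e-04 by limma) and the exact permutation p was 0.0286.

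Mag encodes myelin-associated glycoprotein, an adhesion protein of the membrane next to the axon, and lies on chromosome 7 at 31684202 to 31699851 on the minus strand. Its normalized counts were 2608, 2557, 2715 and 2575 in wild-type libraries and 2904, 3139, 3285 and 2568 in Mbd2-/- libraries. Mbd2-/- replicates 1 to 3 were above all wild-type libraries, and replicate 4 lay within the wild-type range. The log2 fold change was 0.18 (SE 0.07, 95% interval 0.04 to 0.32), which did not pass after adjustment (adjusted p = 0.0578 by limma, exact permutation p = 0.114). It was called with DESeq2 on the recovered reads (adjusted p = 0.049), and without Mbd2-/- replicate 4 the log2 fold change was 0.25 (adjusted p = 1.60e-04). Mag was called under 2 of the 11 alternatives that keep every library and 1 of the 8 that leave out a library.

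Cnp encodes a phosphodiesterase of the non-compact cytoplasmic channels of the sheath, and lies on chromosome 11 at 100436218 to 100453043 on the plus strand. Its exons share 154 bases with those of Dnajc7 on the opposite strand, and since the sources used here do not say whether strand was used in counting, the Cnp values may include Dnajc7 reads. Normalized counts of Cnp were 5833, 5628, 5693 and 5647 in wild-type libraries and 6404, 6520.4, 6997 and 5645 in Mbd2-/- libraries, with Mbd2-/- replicate 4 again inside the wild-type range. The log2 fold change was 0.16 (SE 0.06, 95% interval 0.04 to 0.28), not called at an adjusted p of 0.0527 by limma, with an exact permutation p of 0.114. It too was called with DESeq2 (adjusted p = 0.0449), and without Mbd2-/- replicate 4 the log2 fold change was 0.22 (adjusted p = 1.20e-04). As for Mag, 2 of the 11 alternatives that keep every library and 1 of the 8 that leave out a library called Cnp. The latter was the fit without Mbd2-/- replicate 4. Leaving out that library raised the share of all tested genes called higher to 17.9%, and 8 of the 9 genes were then called, all but Olig1.

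Mal encodes a membrane protein of lipid-rich domains that takes part in sorting proteins to myelin, and lies on chromosome 2 at 127458962 to 127482431 on the minus strand. It had normalized counts of 3521, 3435, 3279.9 and 3383 in wild-type libraries and 3904, 3971, 4019.8 and 3914 in Mbd2-/- libraries. The Mbd2-/- values were all higher and spread less than those of the wild-type libraries, with means of 3404 ± 101 and 3952 ± 54.0. Mal had a log2 fold change of 0.22 (SE 0.05, 95% interval 0.12 to 0.31, adjusted p = 0.0035 by limma) and the exact permutation p was 0.0286.

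Cldn11 encodes claudin 11, which forms the tight junctions between layers of central myelin, and lies on chromosome 3 at 31048868 to 31063246 on the plus strand. Normalized counts of Cldn11 were 2092, 2139, 2205 and 2206 in wild-type libraries and 2459, 2432, 2501 and 2276 in Mbd2-/- libraries. The groups did not overlap, though Mbd2-/- replicate 4 was close to the highest wild-type library. The log2 fold change was 0.16 (SE 0.05, 95% interval 0.06 to 0.27, adjusted p = 0.0293 by limma) and the exact permutation p was 0.0286. Leaving out any library other than Mbd2-/- replicate 4 raised the adjusted p to 0.0558 to 0.095, and without Mbd2-/- replicate 4 it was 0.0013.

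Ugt8a encodes the enzyme that adds galactose to ceramide and so makes the galactolipids of myelin, and lies on chromosome 3 at 125568277 to 125641468 on the minus strand. Its normalized counts were 947, 979.6, 896 and 999.6 in wild-type libraries and 1098, 1136, 1009 and 1198 in Mbd2-/- libraries. Replicate 4 was the highest Mbd2-/- library here and replicate 3 the lowest, just above the highest wild-type library. Ugt8a had a log2 fold change of 0.21 (SE 0.06, 95% interval 0.08 to 0.35, adjusted p = 0.0219 by limma) and the exact permutation p was 0.0286. The call was lost on leaving out wild-type replicate 1 (adjusted p = 0.0624), wild-type replicate 3 (0.0845), Mbd2-/- replicate 1 (0.0512) or Mbd2-/- replicate 2 (0.0709).

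Olig1 encodes a basic helix-loop-helix transcription factor present from the precursor stage onwards, and lies as a single exon on chromosome 16 at 91270014 to 91272184 on the plus strand. Normalized counts of Olig1 were 1968, 1729.7, 1929.9 and 1957 in wild-type libraries and 2004, 1963, 2271 and 1743 in Mbd2-/- libraries. The groups overlapped, and each held a library that stood below the others. Olig1 had a log2 fold change of 0.07 (SE 0.07, 95% interval -0.08 to 0.22, adjusted p = 0.519 by limma, exact permutation p = 0.343).

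The size of the difference varied between the Mbd2-/- libraries. The mean difference of the 9 genes from their wild-type means, on the log2 scale, was 0.23, 0.26, 0.29 and 0.15 in Mbd2-/- replicates 1 to 4, and between -0.01 and 0.01 in the wild-type libraries. All 9 genes were above the highest wild-type library in Mbd2-/- replicates 1 and 3, 8 were in replicate 2, and 6 were in replicate 4. Replicate 3 was the highest Mbd2-/- library for 7 of the 9 genes, the exceptions being Mobp and Ugt8a. The genes also differed in how far they moved, which is given here as a description with no test. Relative to the mean of the other 8 genes on the log2 scale, centred on the wild-type mean, Mbp lay at 0.17 to 0.24 in Mbd2-/- libraries and -0.05 to 0.07 in wild-type libraries. Mog lay at 0.08 to 0.14 against -0.02 to 0.02, and Mobp at 0.05 to 0.18 against -0.005 to 0.01, so that these 3 had no overlap between the genotypes. In Mbd2-/- replicate 4 Ugt8a, at 0.20, lay above all 3 of them. Olig1 lay at -0.30 to -0.03 in Mbd2-/- libraries and -0.13 to 0.05 in wild-type libraries, which overlap, as did the ranges of Mag, Cnp, Mal, Cldn11 and Ugt8a.

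**Figure D2:**
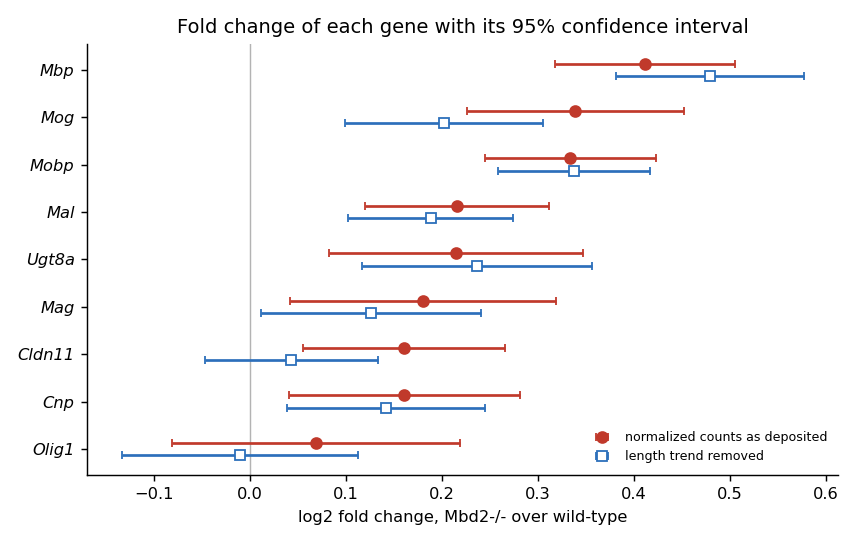
Log2 fold change of each gene, Mbd2-/- over wild-type (horizontal axis), with its 95% confidence interval from limma, for normalized counts as deposited (red circles) and after removal of the trend with transcript length (blue squares). Mbp stays highest in both, at 0.41 and 0.48, and the intervals of Cldn11 and Olig1 include 0 after the trend is removed.

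The levels of the 9 genes are compared per kb of merged annotated exons, the normalized count divided by that length. In wild-type libraries Mbp led with 4245 ± 128 normalized counts per kb, followed by Cnp with 1566 ± 25.5, Mal with 1226 ± 36.2 and Cldn11 with 1172 ± 30.0. Then came Mag with 1077 ± 29.0, Olig1 with 873 ± 51.7, Mobp with 758 ± 7.52, Mog with 549 ± 7.60 and Ugt8a with 267 ± 12.6. Neighbours in this order did not overlap over the 4 libraries, except Mal and Cldn11. In Mbd2-/- libraries the ranges of Cldn11 and Mag overlapped, at 1234 to 1356 and 1058 to 1354 per kb, and Mobp, at 938 to 971, lay inside the range of Olig1, at 803 to 1046. The order depends on the exons counted. Divided by the longest transcript, Mobp rose to 1499.6 ± 14.9 normalized counts per kb in wild-type libraries, behind only Mbp with 7437 ± 224 and Cnp with 1963 ± 31.9.

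Transcript length moved with the fold change over all genes, and its trend is given beside these results. The median log2 fold change fell from 0.29 in the bin with the shortest transcripts (median length 741 bases) to -0.15 in that with the longest (9372 bases), over 14182 tested genes with an annotated length. Genes called higher had a median longest transcript of 1856 bases and those called lower 4973.5 bases. The 9 genes had a median of 2778 bases, against 3188.5 for all tested genes. Mbp, with 4797 bases, lay furthest above the running median of genes of its length, and Cldn11, with 1844 bases, and Olig1, with 2171 bases, lay close to it. With the trend removed in each library by a lowess curve, 5 of the 9 genes were called higher and none lower, against 8.07% and 6.78% of all tested genes, and the median log2 fold change of the 9 was 0.19. The log2 fold changes were then 0.48 for Mbp, 0.34 for Mobp, 0.24 for Ugt8a, 0.20 for Mog (adjusted p = 0.0092) and 0.19 for Mal, and Cldn11, at 0.04, was no longer called (adjusted p = 0.543).

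**Figure D3:**
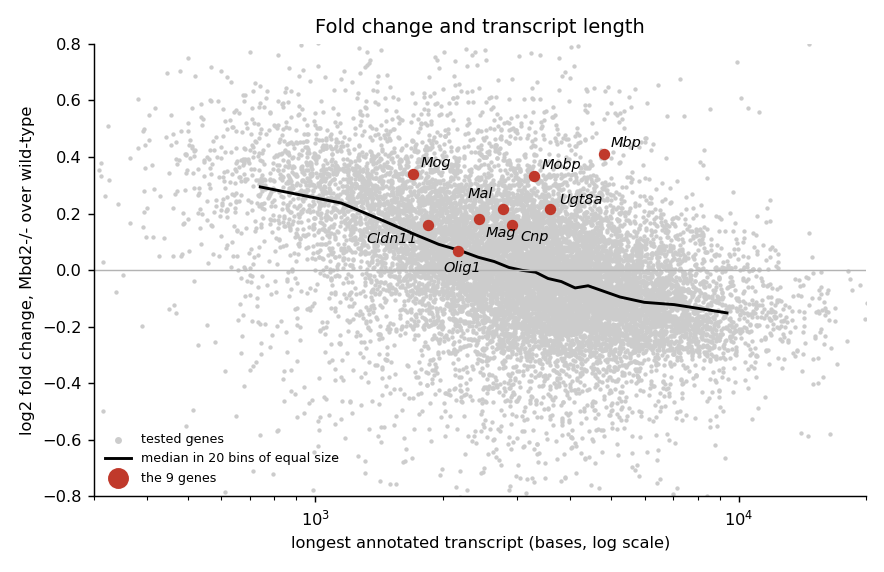
Log2 fold change, Mbd2-/- over wild-type (vertical axis), against the longest annotated transcript in bases (horizontal axis, log scale) for 14182 tested genes in grey, with the median in 20 bins of equal size (line) and the 9 genes in red. A total of 197 genes lie outside the plotted range. Mbp, Mobp and Ugt8a stand above the falling line, and Olig1 and Cldn11 lie near it.

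Among further genes of mature oligodendrocytes, more were called higher than lower. Of 47 such genes, all tested, 20 were called higher and 3 lower, beside 12.0% and 10.0% of all tested genes, with a median log2 fold change of 0.13. Bcas1, a marker of oligodendrocytes that are forming myelin, rose from 2421 ± 113 to 3349 ± 68.5, a log2 fold change of 0.47 (SE 0.05, adjusted p = 2.14e-05 by limma). Among the called genes with the smallest p were also Cd9, a tetraspanin, with a log2 fold change of 0.54, Plekhb1 with 0.40, Qdpr, an enzyme of tetrahydrobiopterin recycling, with 0.36, and Car2, a carbonic anhydrase, with 0.35. Gpm6b (0.12, adjusted p = 0.253) and Tppp (-0.10, adjusted p = 0.149) were not called. The 3 lower genes were Nfasc, Carns1 and Cntn2. Nfasc fell by 0.40 on the log2 scale, from 4013 ± 216 to 3044 ± 71.4 normalized counts (adjusted p = 1.09e-04). Carns1 and Cntn2, chosen for mention after their values were seen, had log2 fold changes of -0.45 and -0.22. Nfasc and Cntn2 encode axonal adhesion proteins that neurons also make, and Carns1 encodes carnosine synthase. Car2, Trf and Cd9 are also made by the choroid plexus. With the length trend removed 15 of the 47 were higher and 2 lower, beside 8.07% and 6.78% of all tested genes, with a median of 0.07. Cntn2 was then no longer called (-0.08, adjusted p = 0.422), and Gpm6b was called higher (0.18, adjusted p = 0.0329).

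**Figure D4:**
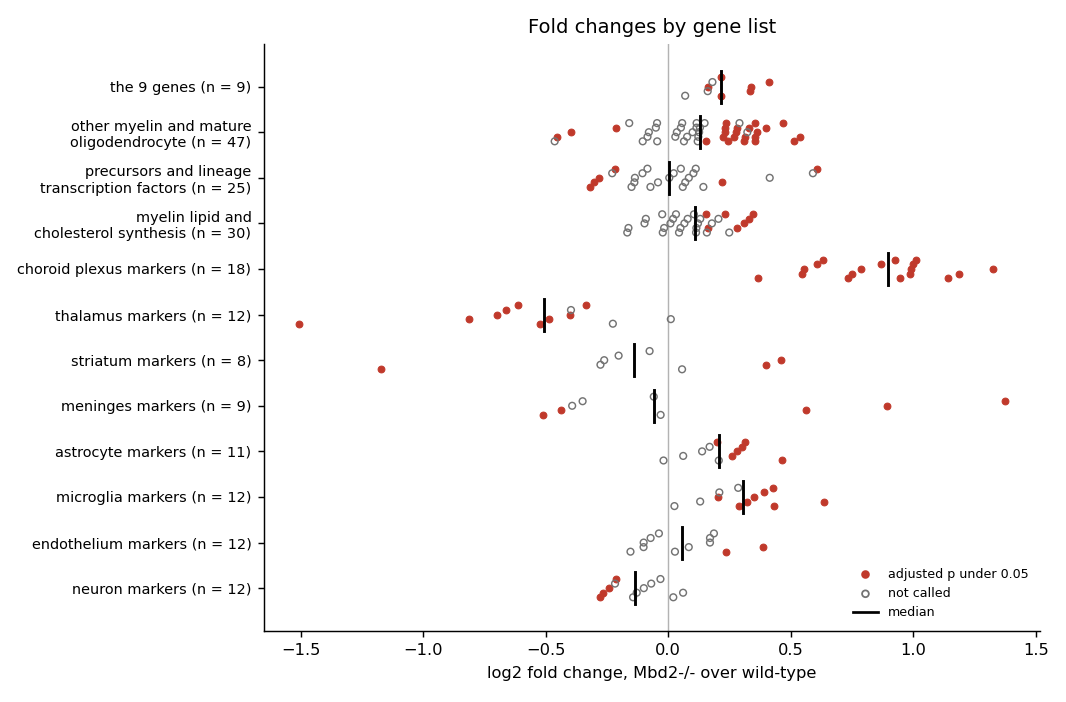
Log2 fold change, Mbd2-/- over wild-type (horizontal axis), of every tested gene of the 9 genes, of 3 wider oligodendrocyte lists and of 8 lists of regional or cell type markers, filled red where called at an adjusted p under 0.05 and open where not, with the median of each list as a black line. The medians run from -0.51 for thalamus markers to 0.90 for choroid plexus markers, with 0.21 for the 9 genes.

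Genes of precursors and lineage transcription factors were called at a share near that of all tested genes. Of 25 genes of oligodendrocyte precursors and lineage transcription factors, 2 were called higher and 4 lower, beside 12.0% and 10.0% of all tested genes, with a median log2 fold change of 0.004. Myrf, the transcription factor that switches on myelin genes, fell from 1136 ± 36.6 to 933 ± 54.6 normalized counts, a log2 fold change of -0.28 (SE 0.06, adjusted p = 0.0028 by limma). Its values were 1190.1, 1125, 1115 and 1113 in wild-type libraries and 919, 1013, 910.1 and 891 in Mbd2-/- libraries, so that the groups did not overlap and the difference was opposite in direction to that of Mbp, Mog and Mobp. Cspg4, the NG2 proteoglycan of precursors, had a log2 fold change of -0.30 (adjusted p = 0.0092), and Gpr17, a receptor of cells about to differentiate, -0.22 (adjusted p = 0.0365). Lingo1, an inhibitor of differentiation that neurons also make, had -0.32 (adjusted p = 0.001). Tns3 rose by 0.22 (adjusted p = 0.0041), and Nkx2-2, a lineage transcription factor at the low level of 33.3 ± 4.38 normalized counts in wild-type libraries, by 0.61 (adjusted p = 0.018). Ptprz1, the most abundant of the list, did not pass (0.14, adjusted p = 0.0627). With the length trend removed 3 genes of the list were called higher and 2 lower, beside 8.07% and 6.78% of all tested genes. Myrf was then at -0.19 (adjusted p = 0.0291) and still called, Cspg4 (-0.18, adjusted p = 0.14) and Gpr17 (-0.14, adjusted p = 0.181) lost their calls, and Ptprz1 was called higher (0.27, adjusted p = 2.17e-04). Olig2 (-0.09, adjusted p = 0.427), Sox10 (-0.07, adjusted p = 0.486) and Pdgfra (-0.04, adjusted p = 0.677), named after their values were seen because they are defining genes of the lineage, were not called.

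Lipid synthesis was followed beside Ugt8a. Of 30 genes, mostly of myelin lipid and cholesterol synthesis, 7 were called higher and none lower, beside 12.0% and 10.0% of all tested genes, with a median log2 fold change of 0.11. Degs1, which makes ceramide, the substrate of Ugt8a, rose from 884 ± 45.2 to 1097 ± 69.1 normalized counts (log2 fold change 0.31, SE 0.06, adjusted p = 0.0025 by limma), and Elovl7, a fatty acid elongase, had 0.33 (adjusted p = 0.0107). The enzymes of cholesterol synthesis Tm7sf2, Ebp, Pmvk and Cyp51 had log2 fold changes of 0.35, 0.28, 0.23 and 0.16. Srebf2, the regulator of that pathway (-0.09, adjusted p = 0.215), and Gatm, of creatine synthesis (0.11, adjusted p = 0.193), were not called. With the length trend removed 3 of the 29 genes tested were called higher, Degs1, Elovl7 and Cyp51, a share near the 8.07% of all tested genes. Pmvk (0.02, adjusted p = 0.911), Ebp (0.15, adjusted p = 0.303) and Tm7sf2 (0.18, adjusted p = 0.26) lost their calls. Leaving out single libraries gave 2 to 12 calls, with 12 (10 higher and 2 lower) when Mbd2-/- replicate 4 was left out and 2 to 4 for each of the others. Of these, 1 was lower without Mbd2-/- replicate 2, and 1 gene was also called lower under upper quartile scaling and with the filter raised to an average of 50 normalized counts. Beside these counts, 5155 of all 14504 tested genes were called without Mbd2-/- replicate 4, and 2068 to 2937 without each of the other libraries.

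Markers of other cells and neighbouring regions moved with the genotypes too, and their part in the results for the 9 genes was not tested. Their counts stand beside 12.0% of all tested genes called higher and 10.0% called lower. The 18 choroid plexus markers were all called higher (median log2 fold change 0.90, summed normalized counts 24807 to 26553 in wild-type and 47850.3 to 54285 in Mbd2-/- libraries), with Ttr, Enpp2 and Kl, the most abundant of them, at log2 fold changes of 1.32, 0.61 and 0.56. Of these sums Enpp2 held 9641 ± 201 in wild-type and 14678 ± 522 in Mbd2-/- libraries, and which cells its RNA came from was not tested. Of 12 thalamus markers 9 were called lower (median -0.51, sums 5042 to 5242 and 3454 to 3763), with Prkcd at -0.61, Plekhg1 at -0.40 and Ptpn3 at -0.34. The thalamus borders the hippocampus and holds myelinated fibres. Of 9 meninges markers 3 were higher and 2 lower (median -0.06, sums 1309.9 to 1364 and 1704 to 2216), Col1a1 at 1.37, Col1a2 at 0.56 and Dcn at -0.51. Of 8 tested striatum markers 2 were higher and 1 lower (median -0.14, sums 1316 to 1407 and 1327 to 1597), with Ppp1r1b at 0.40, Penk at 0.06 and Rgs9 at -0.08.

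Beside the same 12.0% and 10.0%, of 11 astrocyte markers 6 were called higher and none lower (median 0.21, sums 137385 to 139688 and 150805 to 173596), with Aldoc at 0.31, while Slc1a2 (0.17) was not called. Of 12 microglia markers 8 were higher and none lower (median 0.30, sums 6621 to 6864 and 7542 to 8502), with Cx3cr1 at 0.20, and with Csf1r at 0.13 not called. Endothelial markers gave 2 of 12 higher and none lower (median 0.06, sums 4270.4 to 4488 and 4520.4 to 4638), with Cldn5 at 0.38, Slc2a1 at 0.03 and Flt1 at -0.10. Neuronal markers gave 4 of 12 lower and none higher (median -0.14, sums 79392 to 83005 and 72838 to 76942), with Syt1 at -0.24, Slc17a7 at -0.14 and Snap25 at 0.02. The summed normalized counts of the 9 genes ran from 57266 to 59261 in wild-type and from 68374 to 77213 in Mbd2-/- libraries. With the length trend removed 9 astrocyte markers and 5 microglia markers were called higher and 7 neuronal markers lower, beside 8.07% higher and 6.78% lower of all tested genes. Slc1a2 was then called higher (0.32, adjusted p = 2.36e-06), as was Csf1r (0.19, adjusted p = 0.0122), Slc17a7 was called lower (-0.16, adjusted p = 0.0345), and Cldn5 was no longer called (0.20, adjusted p = 0.0506). No marker of the 8 lists was at 0 in any library of either genotype.

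Likeness to the 9 genes was measured within genotypes, as Pearson's r over the 8 libraries between a gene's deviations from its genotype mean and those of the mean of the 9, on the log2 scale, over 10622 genes whose normalized count averaged 100 or more. It is a description with no test, and each gene's values come from the same 8 libraries, which differ in depth and length trend. The mean of the 9 deviated by -0.08 in Mbd2-/- replicate 4 and by 0.06 in Mbd2-/- replicate 3, and by at most 0.03 elsewhere, so these 2 libraries weigh most. The genes with the highest r were Rnf19b (0.995), Fkbp4 (0.994), Surf1 (0.992), Fbxo10 (0.991), Nubp2 (0.991), Stard10 (0.989), Pnck (0.987), Rack1 (0.986), Ramp3 (0.985) and Ndufb9 (0.985). The 3 wider oligodendrocyte lists held 47, 25 and 30 genes, too few beside 10622 for a count among the top 100 to be read. None of the 100 most alike genes was in these lists, and the 46 other myelin genes compared had a median rank of 4102 of 10622.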

How the data were processed

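Hippocampal RNA of 4 wild-type and 4 Mbd2-/- pools was compared. Groups follow the sample labels. Per the labels and the study's methods, the authors removed duplicate reads, aligned to mm9 with STAR and compared genotypes with DESeq2 (versions, counting tool and strandedness are not given in the sources used here). The deposited signal is a normalized count, the reads on a gene divided by a DESeq2 size factor. The log2 fold changes, their errors, the Wald score and the p-values deposited by the authors were not used.

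Reads were recovered as multiples of the lowest nonzero value of a library, and 100% were whole within 0.01. The 14504 genes averaging 10 or more entered limma 3.58.1 (R 4.3.3, trend, robust) as log2(normalized count + 1), the scale of all fold changes, which understates changes of low genes. A gene was called when its Benjamini-Hochberg adjusted p was under 0.05. ± is the SD over 4 libraries. P-values measure the spread between pools of 2 mice. Read totals cover counting error only. Lengths are from GENCODE vM1 (mm9), matched for 18097 of 19201 genes, and exons are merged over all transcripts. No library repeated another: the chi-square per gene between pairs of a genotype was 1.92 to 13.9.

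The 9 genes and all lists were chosen with earlier results of these data known. The other genes named are, in each wider list, the 3 most abundant and the 6 called genes with the smallest p, in each marker list the 3 most abundant, and the 10 most like the 9 genes. A few genes that this selects are not reported here. Alternatives were DESeq2 1.42.0, edgeR 4.0.16 and voom on recovered reads, limma without robust moderation, TMM and upper quartile scaling, no filter, a minimum of 50, a pseudocount of 8, a replicate block, removal of the length trend (lowess, span 0.3) and leaving out each library.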

Additional observations from a re-analysis of the deposited data

Results flagged for a closer look

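In 1 of the 18 groups examined, 9 genes in 2 genotypes, a library stood apart from the other 3 by Dixon's criterion at the 95% level. It was wild-type replicate 2 for Olig1, with 1729.7 normalized counts, below 1968, 1929.9 and 1957 in the other wild-type libraries. Chance alone flags about 1 in 20 groups.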

How the results depend on the processing

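Mbp, Mog, Mobp and Mal were called higher under all 11 alternatives that keep every library and in all 8 that leave one out. The count of the 9 genes called was 5 to 8 and 4 to 8 under these, against 6. Mag and Cnp were called with DESeq2 on the recovered reads (adjusted p = 0.049 and 0.0449), with a replicate block and without Mbd2-/- replicate 4, and under no other alternative. Olig1 reversed to -0.0104 with the length trend removed, and Cldn11 lost its call. Of all tested genes, 3185 were called, 2105 with the length trend removed, and 2068 to 5155 on leaving out 1 library, with 5155 without Mbd2-/- replicate 4. Of the 30 lipid genes, 7 were called, 4 with no filter on low values (beside 2903 of all 19201 genes), 3 with the length trend removed, and 2 to 12 on leaving out 1 library. The cause of these changes was not tested. The labels state no pairing by replicate number, and deviations of libraries of the same number correlated at -0.10, -0.06, 0.07 and 0.04. Such low values cannot exclude a weak effect shared by libraries of the same number. With the number as a replicate block, 8 of the 9 genes were called (Mag and Cnp at adjusted p = 0.0353 and 0.0437), 4 of the lipid genes and 3192 of all genes. Precision rests on 4 pools per genotype rather than on depth, since the lowest value of the 9 genes is 896 normalized counts.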
